A study of Mus musculus with 16 samples.

Results

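The genes of fatty acid oxidation and of peroxisomes described here were chosen by symbol from a list of 44, covering mitochondrial and peroxisomal fatty acid oxidation, ketone body enzymes and their regulators. The array table holds 43 of the 44, among 18132 genes in all. HADHA was not analysed here. The genes were ordered into 7 roles, which are uptake, activation and the carnitine shuttle, the acyl-CoA dehydrogenases, the later steps of the mitochondrial spiral, electron transfer, ketone body enzymes, peroxisomal enzymes and membrane proteins, and regulators.

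A fatty acid enters a cell, is activated to its acyl-CoA and is carried as acylcarnitine into the mitochondrial matrix, where cycles of dehydrogenation, hydration, oxidation and thiolysis shorten it and pass electrons through flavoproteins to the respiratory chain. Very long and branched chains are shortened first in peroxisomes, by a parallel set of oxidases and thiolases. The proximal tubule of the kidney is rich in mitochondria and peroxisomes and relies on fatty acids as fuel.

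In unilateral ureteral obstruction (UUO) the outflow of 1 kidney is blocked, here with a clip on the left ureter, and that kidney is injured. The study profiled kidneys of wildtype (WT) mice and of mice deficient in IL-33, a nuclear cytokine of the interleukin-1 family, with and without UUO. RNA from 16 kidneys was measured on Illumina MouseRef-8 v2 BeadChips, 1 array per kidney, and each kidney is named by its array number. The arrays comprise 2 WT controls (3811 and 3812), 2 IL-33-deficient controls (3813 and 3814), 7 WT kidneys after UUO (3818, 3819 and 3820 in set 1 of the mice, 3892, 3893, 3894 and 3895 in set 2) and 5 from obstructed IL-33-deficient mice (3821 and 3822 in set 1, 3897, 3898 and 3899 in set 2). IL-33-deficient mice are called KO below. The labels give the C57/BL6 strain for both genotypes, and the methods a backcross of the deficient strain over 10 generations and an age of 8 weeks unless stated otherwise. UUO kidneys were taken 24 h after ligation, and controls had no treatment. The set of the controls is not given in the sources used here. The labels do not say whether the kidneys of a group came from separate mice, so p-values measure the spread between these samples.

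IL33 itself checks the labels. Its log2 intensity was 7.62 and 8.02 in the WT controls and 6.88 and 6.85 in the KO controls. After UUO it ranged from 8.39 to 9.58 in WT kidneys, with a median of 9.44, and from 6.80 to 7.02 in KO kidneys, with a median of 6.88. Every KO array lay below the median log2 value of the table, 7.05, and every WT array above it, so each array carried the genotype of its label at this gene. Values are log2 intensities after quantile normalization. The dimmest intensities of an array are background signal, so a dim gene shows a smaller log2 change than its transcript.

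In 7 of the 43 genes (HADH, AMACR, PHYH, CPT1A, CROT, FABP1 and PPARA) the mean log2 intensity lay below the median of the table. The table has no detection p-values, and no gene was removed for low intensity. The tissue label was checked against markers of the nephron. KAP of the proximal tubule had a mean log2 intensity of 13.79 and UMOD of the thick limb one of 13.39, near the top of the scale. Of 7 measured fat cell markers, 6 lay below the median of the table, and the brightest, CFD, had a mean of 7.31. CFD was at 9.20 in WT UUO kidney 3818 and at 8.79 in KO UUO kidney 3822, and between 6.96 and 7.28 in the other kidneys.

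Promoter sequences were taken from RefSeq (GRCm38.p6) to see what the genes share in the 250 bases before to 50 bases after their start. Of the 43 genes, 36 had an entry. No entry was matched for ACAA2, ACAT1, CRAT, DECR1, HSD17B4, AMACR and PXMP2. The 6-base half-site of nuclear receptors, AGGTCA, was searched on both strands and found in 8 of the 36 (22.2%), beside 18.1% of 27025 genes with a promoter entry. These 8 were ACADM, ACADVL, CPT1A, FABP1, SLC27A2, SCP2, PHYH and CAT. A direct repeat of the half-site with 1 base between the copies (any base) was found in 0 of 36 and in 0.0481% of all genes. The half-site was present in 4 of the 18 promoters of genes called lower in KO kidneys and in 4 of the other 18. These 4 promoters are shown because their genes are called after UUO and appear again below. Each runs 5′ to 3′ along its gene, and capitals mark the half-site, which reads TGACCT where it lies on the opposite strand.
ACADM, minus strand, chr3:153944594-153944893: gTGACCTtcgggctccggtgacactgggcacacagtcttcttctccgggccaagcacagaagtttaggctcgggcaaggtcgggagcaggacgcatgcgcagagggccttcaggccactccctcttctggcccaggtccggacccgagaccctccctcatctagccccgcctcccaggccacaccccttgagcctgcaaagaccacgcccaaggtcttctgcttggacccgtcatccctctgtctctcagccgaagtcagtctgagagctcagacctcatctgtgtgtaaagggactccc
SLC27A2, plus strand, chr2:126552774-126553073: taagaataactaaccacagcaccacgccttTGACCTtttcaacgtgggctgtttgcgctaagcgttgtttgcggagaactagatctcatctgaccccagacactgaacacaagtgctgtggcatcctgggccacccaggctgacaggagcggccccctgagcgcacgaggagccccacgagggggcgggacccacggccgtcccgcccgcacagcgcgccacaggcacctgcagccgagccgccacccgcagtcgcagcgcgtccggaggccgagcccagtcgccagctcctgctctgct
SCP2, minus strand, chr4:108118498-108118797: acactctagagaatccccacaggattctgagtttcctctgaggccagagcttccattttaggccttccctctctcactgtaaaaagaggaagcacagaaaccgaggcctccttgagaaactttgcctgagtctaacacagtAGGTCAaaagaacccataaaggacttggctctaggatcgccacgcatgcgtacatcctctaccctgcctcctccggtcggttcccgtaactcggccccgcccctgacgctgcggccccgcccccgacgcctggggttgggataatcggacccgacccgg
CAT, minus strand, chr2:103485104-103485403: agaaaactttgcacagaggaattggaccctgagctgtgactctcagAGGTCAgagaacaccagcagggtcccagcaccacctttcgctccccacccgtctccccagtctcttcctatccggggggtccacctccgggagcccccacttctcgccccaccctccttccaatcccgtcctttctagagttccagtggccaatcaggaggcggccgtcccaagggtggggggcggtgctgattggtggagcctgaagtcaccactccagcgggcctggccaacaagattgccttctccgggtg

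The half-site lies on the gene's own strand in SCP2 and CAT and on the opposite strand in ACADM and SLC27A2. A match is a run of letters and not evidence of binding.

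Many of the 43 genes were lower after UUO than in the controls. The controls had no treatment, so obstruction cannot be told apart from surgery, anaesthesia and analgesia here. A difference in set cannot be told apart either. In WT kidneys 12 were called lower at a limma adjusted p (Benjamini-Hochberg over all genes) under 0.05 (27.9%), beside 8.22% of all genes, and 0 were called higher, beside 6.97%. In KO kidneys 22 were called lower (51.2%), beside 11.2%, and 0 were called higher, beside 10.6%. At an unadjusted p under 0.05, 18 of the 43 were lower in WT (41.9%), beside 13.7% of all genes, and 28 in KO (65.1%), beside 15.6%, and none was higher. The median log2 change over the 43 was -0.26 in WT and -0.69 in KO, while the median of all genes was -0.0008 and -0.0006. The genes called in WT were all among those called in KO. The 10 called in KO alone do not show a difference between the genotypes, which was tested directly and is given further on.

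The WT count depended on single controls. It was 3 without control 3811 (CRAT, BDH1 and PPARGC1A), beside 3.27% of all genes, and 2 without control 3812 (BDH1 and PPARGC1A), beside 2.44%. With UUO kidneys of set 1 alone it was 1 (ACSM3), beside 0.590%, and with set 2 alone 21, beside 11.9%. It was 6 when the model held WT kidneys alone, beside 5.34%. SCP2 was not called in WT without any 1 of kidneys 3892, 3893 and 3895. Without WT kidney 3820, ACAT1, ACOX2, FABP3 and PXMP2 were called lower too, which made 16, beside 10.3% of all genes. The KO count lay between 15 and 28 under every alternative run. The 15 came from UUO kidneys of set 1 alone, beside 6.31% of all genes, and the 28 from array weights, beside 12.4%. ACADM, ECH1, CAT and PXMP2 were not called in KO without control 3813 or without control 3814, CPT2 and SLC27A2 not without 3814, and ETFA and AMACR not without 3813. ECH1 was not called without any 1 of KO kidneys 3821, 3822 and 3897, nor CAT without 3821. ACAA2, ETFDH and PEX11A were called lower in KO without WT kidney 3819 or without 3820, ACAA1B without 3819, ACSL1 and FABP3 without 3820, and PEX11A also without 3894. The medians of the 43 genes were below 0 in all alternatives.

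**Figure D1:**
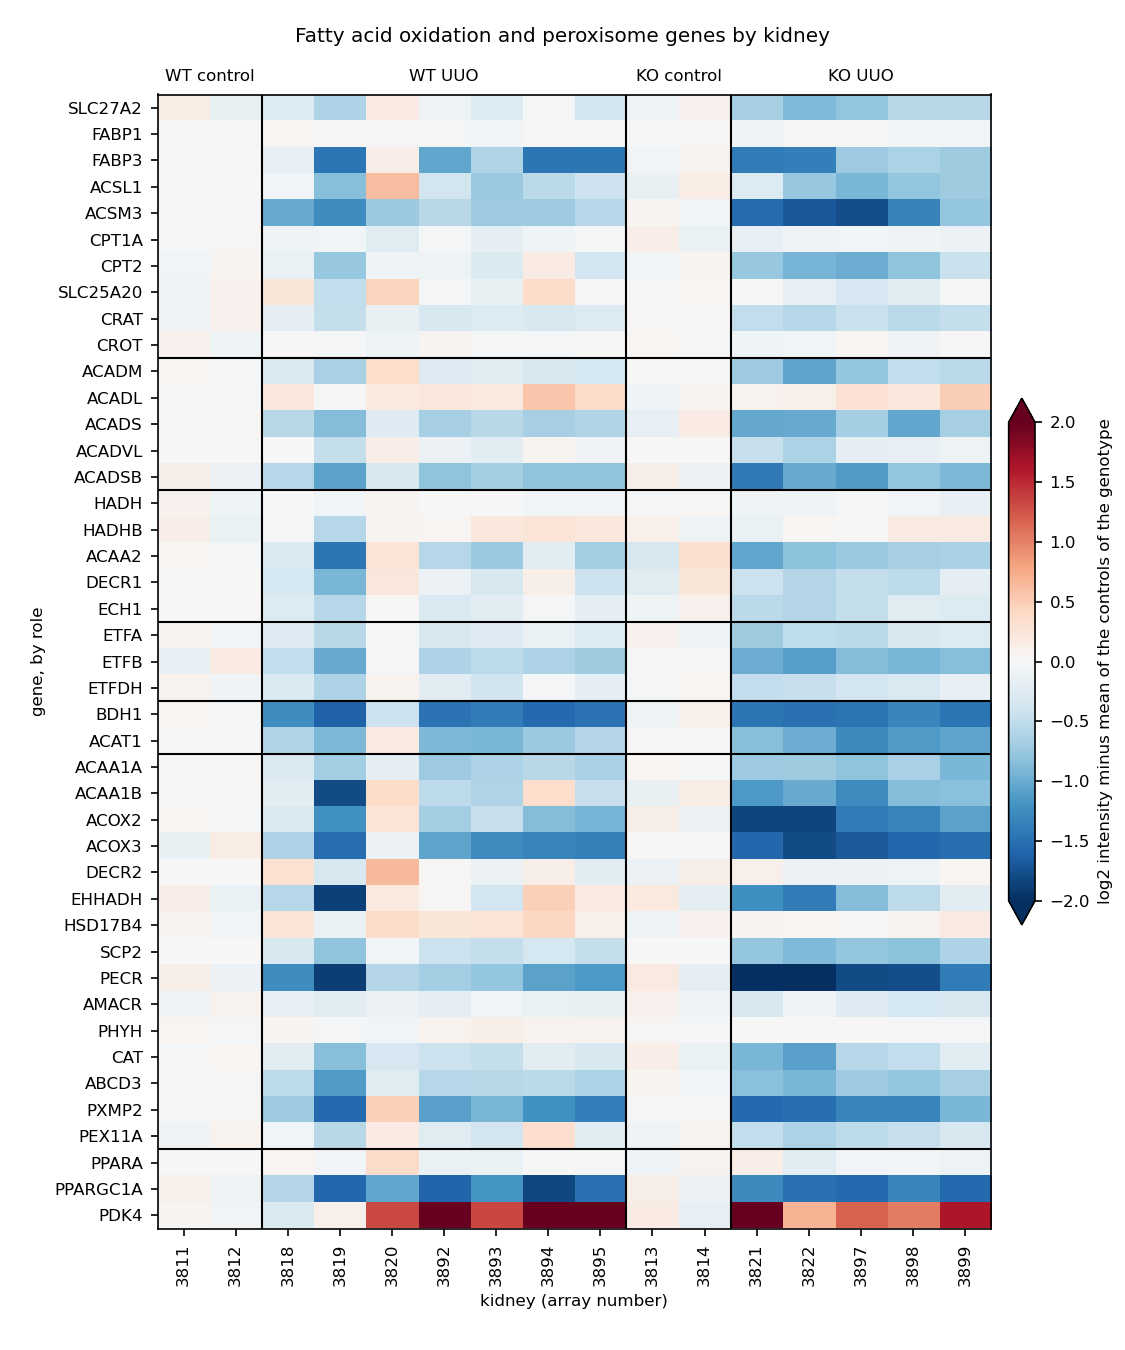
Each gene's log2 intensity less its average in the controls of the same genotype, with the 43 genes ordered by role down the side and the 16 kidneys along the other axis. Most genes are blue across KO kidneys, WT kidney 3820 is close to its controls, and PDK4 is red in most UUO kidneys.

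Without overlap means that every UUO kidney lay below both controls of its genotype. This held for 12 genes in WT (27.9%), beside 11.2% of all genes, and for 29 in KO (67.4%), beside 17.5%.

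Among the 10 genes of uptake, activation and the carnitine shuttle, 2 were called lower in WT, beside 8.22% of all genes, and 4 in KO, beside 11.2%, with median log2 changes of -0.22 and -0.59. ACSM3 ligates medium-chain fatty acids to coenzyme A. It was at 11.26 and 11.26 in WT controls and 11.40 and 11.28 in KO controls, and after UUO it ranged from 10.02 to 10.71 in WT (median 10.53) and from 9.57 to 10.58 in KO (median 9.81). All UUO kidneys lay below all controls, and the genotypes overlapped. It fell by 0.80 in WT (1.74-fold, limma adjusted p = 0.0197) and by 1.42 in KO (2.68-fold, adjusted p = 0.000329). CPT2 releases the acyl group from carnitine inside the mitochondrion. It was at 10.71 and 10.83 in WT controls and 10.73 and 10.85 in KO controls, ranged from 10.02 to 10.93 in WT UUO kidneys (median 10.64), and from 9.80 to 10.34 in KO UUO kidneys (median 9.98). WT kidneys spread across the level of the controls, with 3819 lowest, while all KO kidneys lay below theirs. The log2 change was -0.22 in WT (limma adjusted p = 0.500) and -0.78 in KO (adjusted p = 0.00564). The WT value ran from -0.29 to -0.14 with each array left out.

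SLC27A2 is a very long chain acyl-CoA synthetase and fatty acid transporter of the proximal tubule. It was at 14.07 and 13.79 in WT controls and 13.84 and 14.02 in KO controls, and ranged from 13.32 to 14.09 in WT UUO kidneys (median 13.66) and from 13.05 to 13.38 in KO UUO kidneys (median 13.26). WT kidneys 3820, 3892 and 3894 reached their controls, and no KO kidney did. The log2 change was -0.22 in WT (limma adjusted p = 0.439) and -0.69 in KO (adjusted p = 0.00543). The WT value depended on single arrays and ran from -0.36 to -0.07 with each left out. CRAT, which moves acetyl groups to carnitine, fell by 0.29 in WT and by 0.50 in KO. It was at 7.89 and 8.06 in WT controls and 8.06 and 8.03 in KO controls, and ranged from 7.49 to 7.82 in WT UUO kidneys (median 7.70) and from 7.48 to 7.60 in KO UUO kidneys (median 7.54). FABP3, a carrier of fatty acids, had log2 changes of -0.86 and -0.97, not called in either genotype (limma adjusted p = 0.156 and 0.0978). It was at 10.56 and 10.53 in WT controls and 10.18 and 10.30 in KO controls, and ranged from 9.09 to 10.68 in WT UUO kidneys (median 9.50) and from 8.84 to 9.60 in KO UUO kidneys (median 9.51). CPT1A, CROT and FABP1 had means below the median of the table, with log2 changes between -0.11 and -0.0095 in both genotypes. FABP1 was at 6.82 and 6.78 in WT controls and 6.76 and 6.82 in KO controls, and ranged from 6.74 to 6.83 in WT UUO kidneys (median 6.78) and from 6.72 to 6.81 in KO UUO kidneys (median 6.74). The other genes of this role are ACSL1 and SLC25A20, which passed in neither genotype.

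Acyl-CoA dehydrogenases open the mitochondrial spiral. Of the 5, ACADS and ACADSB were called lower in WT, beside 8.22% of all genes, and ACADM with them in KO, beside 11.2%. ACADS acts on short chains. It was at 9.80 and 9.84 in WT controls and 9.57 and 9.89 in KO controls, and ranged from 8.94 to 9.57 in WT UUO kidneys (median 9.22) and from 8.69 to 9.06 in KO UUO kidneys (median 8.73). UUO kidneys lay below the controls of their genotype. It fell by 0.60 in WT (1.51-fold, limma adjusted p = 0.00833) and by 0.88 in KO (1.84-fold, adjusted p = 0.000410).

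ACADM, the medium-chain enzyme, was at 13.75 and 13.67 in WT controls and 13.69 and 13.67 in KO controls, and ranged from 13.07 to 14.06 in WT UUO kidneys (median 13.41) and from 12.63 to 13.19 in KO UUO kidneys (median 12.95). In WT kidney 3820 it exceeded all controls. Its log2 change was -0.25 in WT (limma adjusted p = 0.457) and -0.71 in KO (adjusted p = 0.0125). ACADSB, which oxidizes short branched chains from isoleucine, fell by 0.72 in WT and by 1.04 in KO. It was at 9.79 and 9.57 in WT controls and 9.99 and 9.75 in KO controls, and ranged from 8.61 to 9.36 in WT UUO kidneys (median 8.88) and from 8.46 to 9.10 in KO UUO kidneys (median 8.87). ACADVL, the very long chain enzyme, had log2 changes of -0.10 and -0.31, and ACADL of 0.25 and 0.24, none of them called. The WT value of ACADVL ran from -0.14 to -0.04 with each array left out. ACADVL was at 11.07 and 11.07 in WT controls and 11.03 and 11.04 in KO controls, and ranged from 10.59 to 11.20 in WT UUO kidneys (median 11.00) and from 10.41 to 10.93 in KO UUO kidneys (median 10.84). ACADL was called higher with set 2 alone, in both genotypes.

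Of the 5 measured genes of the later mitochondrial spiral, 0 were called by limma in WT, beside 8.22% of all genes for lower, and 1 in KO, beside 11.2%. That gene was ECH1, an auxiliary isomerase for unsaturated chains, which fell by 0.42. At an unadjusted p under 0.05, 0 were lower in WT, beside 13.7% of all genes, and 2 in KO, beside 15.6%. ACAA2, the mitochondrial thiolase, had log2 changes of -0.53 and -0.78 (limma adjusted p = 0.304 and 0.0944). The KO value ran from -1.11 to -0.46 with each array left out. Its WT UUO kidneys ran from 8.95 to 10.68 and its KO UUO kidneys from 9.04 to 9.43, beside controls at 10.45 and 10.36 in WT and 9.75 and 10.40 in KO. HADHB, the thiolase subunit of the trifunctional protein, had log2 changes of 0.03 and 0.04. It was at 11.18 and 10.91 in WT controls and 11.09 and 10.87 in KO controls, and ranged from 10.48 to 11.31 in WT UUO kidneys (median 11.11) and from 10.84 to 11.16 in KO UUO kidneys (median 11.02). DECR1 and HADH were not called.

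Electron transfer flavoprotein takes the electrons of the dehydrogenases. Its beta subunit ETFB was at 12.47 and 12.79 in WT controls and 12.56 and 12.61 in KO controls, and ranged from 11.62 to 12.58 in WT UUO kidneys (median 12.01) and from 11.48 to 11.73 in KO UUO kidneys (median 11.67). KO kidneys were tightly grouped below their controls, and WT kidney 3820 lay among its own. ETFB fell by 0.57 in WT (1.49-fold, limma adjusted p = 0.0279) and by 0.95 in KO (1.93-fold, adjusted p = 0.000966). The alpha subunit ETFA fell by 0.47 in KO, and ETFDH, which passes electrons to ubiquinone, had log2 changes of -0.24 and -0.36 and was not called (limma adjusted p = 0.303 and 0.0862). ETFDH was at 9.56 and 9.42 in WT controls and 9.29 and 9.38 in KO controls, and ranged from 8.87 to 9.56 in WT UUO kidneys (median 9.26) and from 8.85 to 9.17 in KO UUO kidneys (median 8.95).

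BDH1 interconverts the ketone bodies. It was at 9.76 and 9.68 in WT controls and 9.42 and 9.61 in KO controls, and ranged from 8.11 to 9.29 in WT UUO kidneys (median 8.24) and from 8.01 to 8.21 in KO UUO kidneys (median 8.05). All UUO kidneys lay below the controls of their genotype, with WT kidney 3820 highest. BDH1 fell by 1.32 in WT (2.49-fold, limma adjusted p = 0.00112) and by 1.44 in KO (2.71-fold, adjusted p = 0.000316). ACAT1, the acetoacetyl-CoA thiolase, fell by 1.06 in KO, and had a log2 change of -0.64 in WT (limma adjusted p = 0.0538). It was at 8.32 and 8.29 in WT controls and 8.39 and 8.34 in KO controls, and ranged from 7.38 to 8.48 in WT UUO kidneys (median 7.56) and from 7.10 to 7.51 in KO UUO kidneys (median 7.30).

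**Figure D2:**
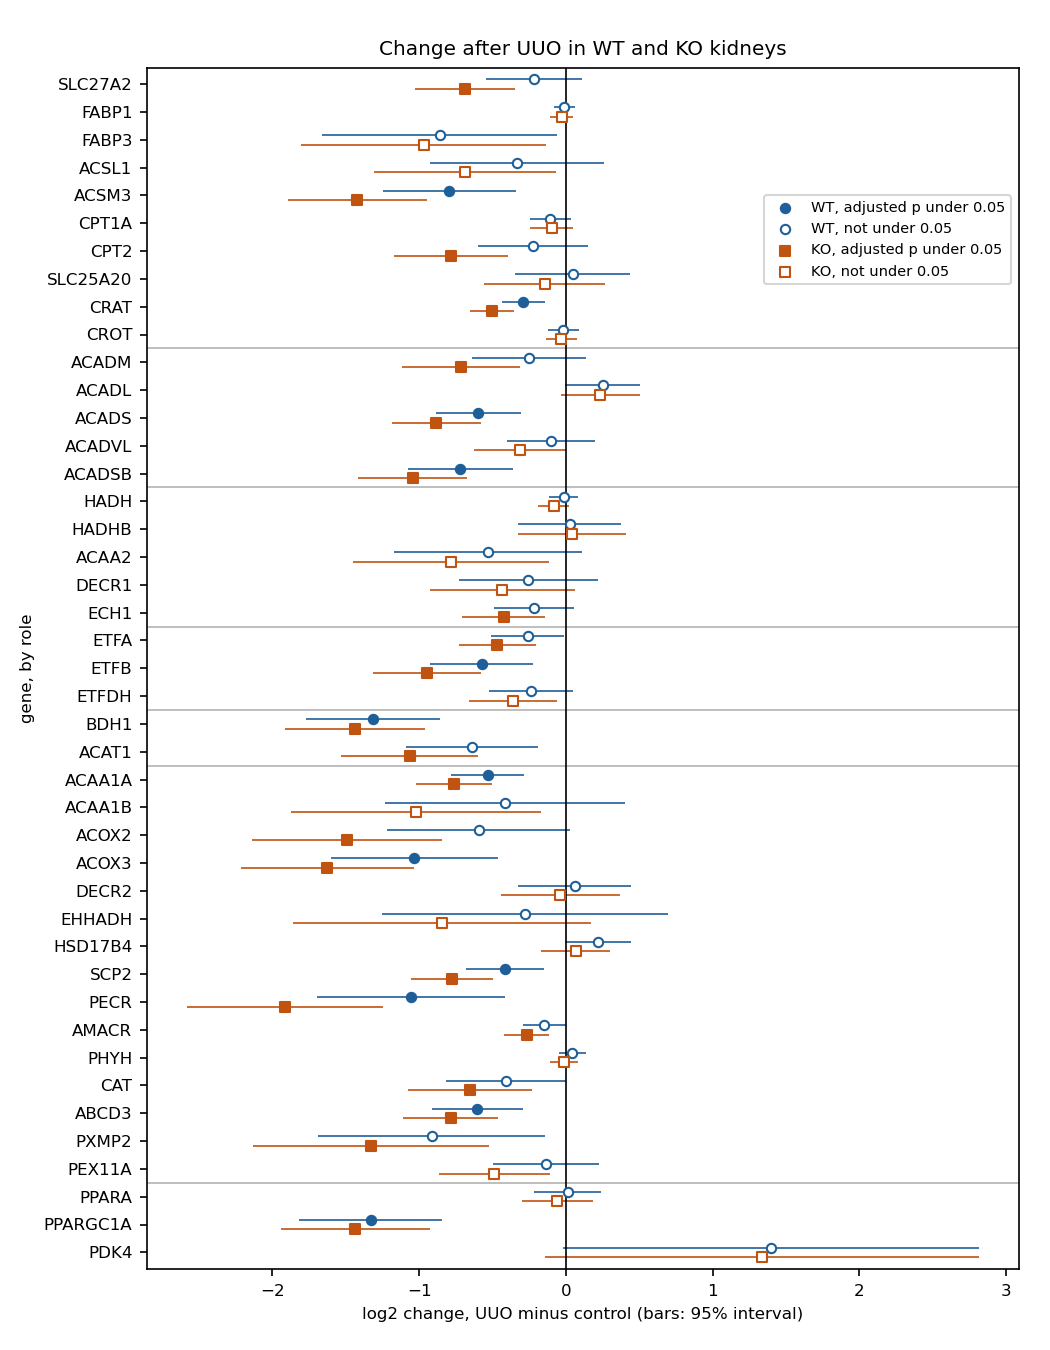
Log2 change of each gene after UUO with its 95% interval, in WT (circles) and KO (squares), by role. Filled symbols mark a limma adjusted p under 0.05, 12 in WT and 22 in KO, all to the left of 0.

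Peroxisomal enzymes and membrane proteins made up 15 of the 43. In WT 5 were called lower (ACAA1A, ACOX3, SCP2, PECR and ABCD3), beside 8.22% of all genes, and in KO 9, beside 11.2%, with ACOX2, AMACR, CAT and PXMP2 added. The median log2 change was -0.42 in WT and -0.77 in KO. PECR reduces trans-2-enoyl-CoA in peroxisomes. It was at 10.10 and 9.87 in WT controls and 10.46 and 10.11 in KO controls, and ranged from 8.10 to 9.39 in WT UUO kidneys (median 8.92) and from 7.67 to 8.89 in KO UUO kidneys (median 8.49). No UUO kidney reached its controls. PECR fell by 1.06 in WT (2.08-fold, limma adjusted p = 0.0280) and by 1.91 in KO (3.77-fold, adjusted p = 0.000482).

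SCP2 carries sterols and holds a thiolase for branched chains. It was at 11.86 and 11.86 in WT controls and 11.87 and 11.85 in KO controls, and ranged from 11.06 to 11.81 in WT UUO kidneys (median 11.43) and from 10.98 to 11.24 in KO UUO kidneys (median 11.08). All UUO kidneys were below all controls, WT kidney 3820 only just. SCP2 fell by 0.42 in WT (1.34-fold, limma adjusted p = 0.0348) and by 0.77 in KO (1.71-fold, adjusted p = 0.000569). ACOX3, an oxidase of branched acyl-CoA, fell by 1.03 and 1.62, and ABCD3, the membrane carrier of acyl-CoA, by 0.60 and 0.79. Catalase, CAT, fell by 0.65 in KO. DECR2, a reductase for unsaturated chains, had log2 changes of 0.06 and -0.04. It was at 7.81 and 7.81 in WT controls and 7.54 and 7.79 in KO controls, and ranged from 7.49 to 8.45 in WT UUO kidneys (median 7.82) and from 7.55 to 7.76 in KO UUO kidneys (median 7.56). ACAA1A, a peroxisomal thiolase, fell by 0.53 and 0.76. Its close paralog ACAA1B had log2 changes of -0.42 and -1.02 and was not called (limma adjusted p = 0.588 and 0.0879), and whether the probes tell the paralogs apart was not tested. EHHADH, HSD17B4, PHYH and PEX11A were not called. HSD17B4 was called higher in WT without kidney 3819 and with set 2 alone.

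Among the regulators, PPARGC1A, a coactivator of mitochondrial biogenesis, was at 9.94 and 9.75 in WT controls and 9.99 and 9.75 in KO controls, and ranged from 8.02 to 9.26 in WT UUO kidneys (median 8.35) and from 8.31 to 8.60 in KO UUO kidneys (median 8.38). Every UUO kidney lay below every control, and the KO kidneys lay within the range of the WT kidneys. PPARGC1A fell by 1.33 in WT (2.52-fold, limma adjusted p = 0.00152) and by 1.43 in KO (2.70-fold, adjusted p = 0.000538). PPARA, the nuclear receptor for fatty acids, had a mean of 7.02, just below the median of the table, with log2 changes of 0.01 and -0.06. It was at 7.06 and 7.08 in WT controls and 6.92 and 7.05 in KO controls, and ranged from 6.94 to 7.45 in WT UUO kidneys (median 7.05) and from 6.77 to 7.12 in KO UUO kidneys (median 6.92).

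PDK4, a kinase that shuts off pyruvate dehydrogenase, had its own course. It was at 8.61 and 8.52 in WT controls and 8.16 and 7.82 in KO controls, and ranged from 8.28 to 11.79 in WT UUO kidneys (median 9.90) and from 8.68 to 10.15 in KO UUO kidneys (median 9.16). WT kidneys of set 2 lay between 9.90 and 11.79, and WT kidneys 3818 and 3819 of set 1 near the controls. The log2 change was 1.39 in WT and 1.34 in KO, not called in either (limma adjusted p = 0.201 and 0.216). It was called higher with set 2 alone in both genotypes, in WT without kidneys 3818 and 3820, and in KO with KO kidneys alone in the model.

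**Figure D3:**
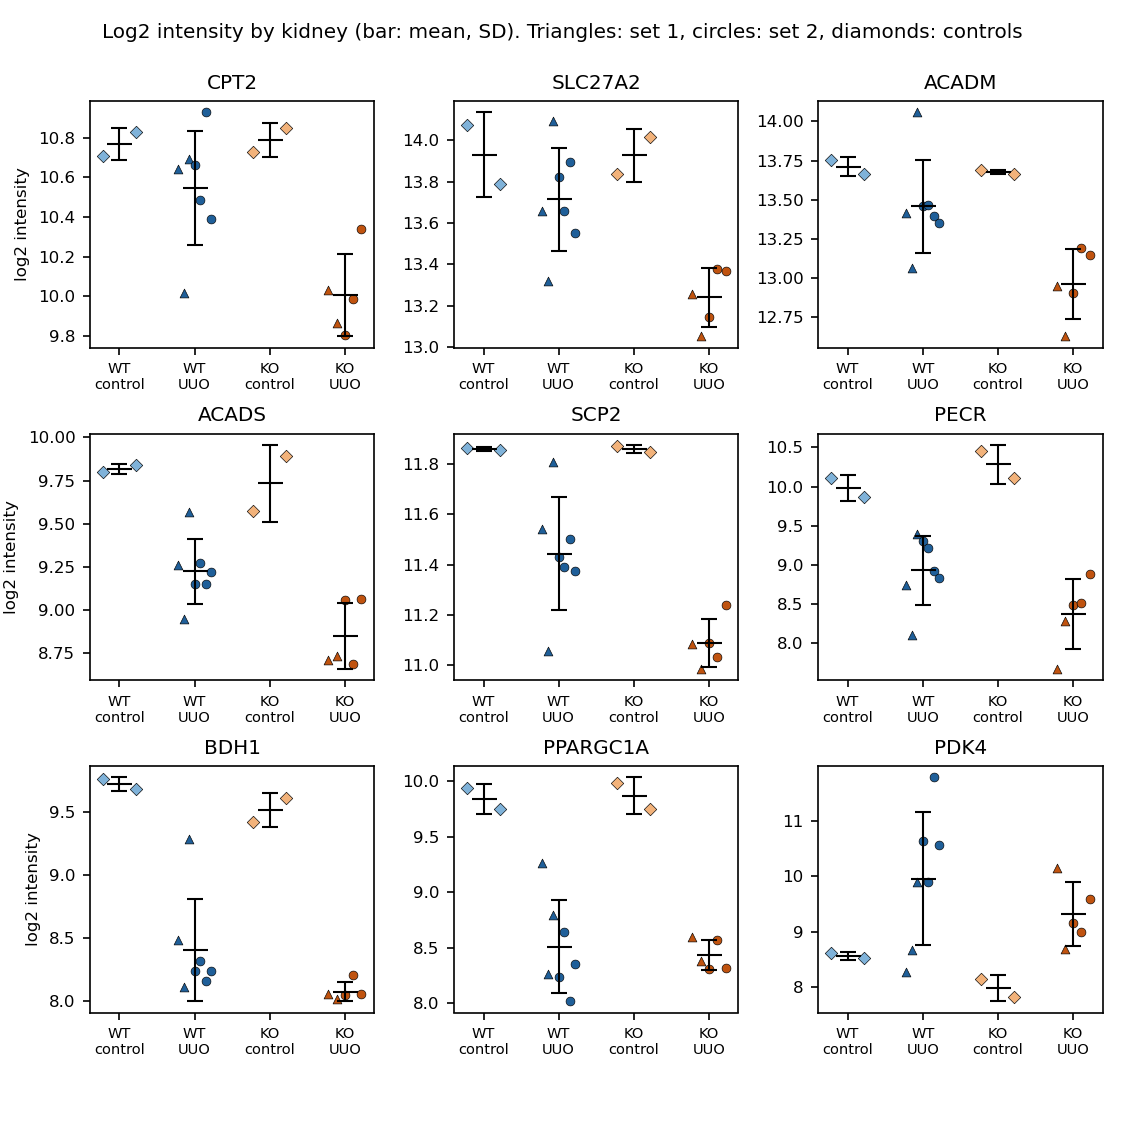
Log2 intensity of 9 genes in every kidney, with triangles for set 1, circles for set 2, diamonds for controls and bars for mean and SD. KO kidneys after UUO lie lowest for CPT2, SLC27A2, ACADM, ACADS and SCP2, with WT kidney 3819 among or near them.

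The kidneys of a group differed in how far the genes had moved. The median difference of the 43 genes from the controls of the genotype was -0.27 in WT kidney 3818, -0.70 in 3819, 0.06 in 3820, -0.31 in 3892, -0.38 in 3893, -0.14 in 3894 and -0.36 in 3895. In KO kidneys it was -0.70 in 3821, -0.75 in 3822, -0.68 in 3897, -0.53 in 3898 and -0.45 in 3899. Of the WT UUO kidneys, 3819 was the lowest in 33 of the 43 genes and 3820 the highest in 28. WT kidney 3819 lay within the range of KO kidneys, and the other WT kidneys lay above it.

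As a median, markers of the proximal tubule moved alongside. Their median difference from the controls was -0.52 in 3818, -1.28 in 3819, 0.05 in 3820, -0.64 in 3892, -0.50 in 3893, -0.75 in 3894 and -0.93 in 3895, and between -1.46 and -0.86 in KO kidneys. Of 14 measured markers, 2 were called lower in WT, beside 8.22% of all genes, and 10 in KO, beside 11.2%, and the summed intensity was 77835 and 78087 in WT controls, 80456 and 83427 in KO controls, 33710 to 71019 in WT UUO kidneys and 24330 to 41618 in KO UUO kidneys. The brightest, KAP, ran from 13.60 to 13.95 in WT UUO kidneys and from 13.30 to 13.82 in KO UUO kidneys. Its controls were at 13.72 and 13.74 in WT and at 13.91 and 14.04 in KO. In WT only kidney 3819 lay below the controls, so KAP did not share the fall there. All KO UUO kidneys lay below theirs. Of 9 measured markers of injured tubule, 8 were called higher in each genotype, beside 6.97% of all genes in WT and 10.6% in KO. HAVCR1, an injury molecule of the proximal tubule, was at 10.42 in WT kidney 3820 and between 12.84 and 13.95 in the other WT UUO kidneys. The median difference of the injured tubule markers from the controls was 1.31 in 3820, and between 1.18 and 1.59 in the other WT UUO kidneys. Their summed intensity was lowest in 3820, at 23621, and between 31520 and 48350 in the other WT UUO kidneys. Fewer tubule cells and less RNA per cell cannot be told apart in whole kidney, and the part of either in the fall of the 43 genes was not tested.

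**Figure D4:**
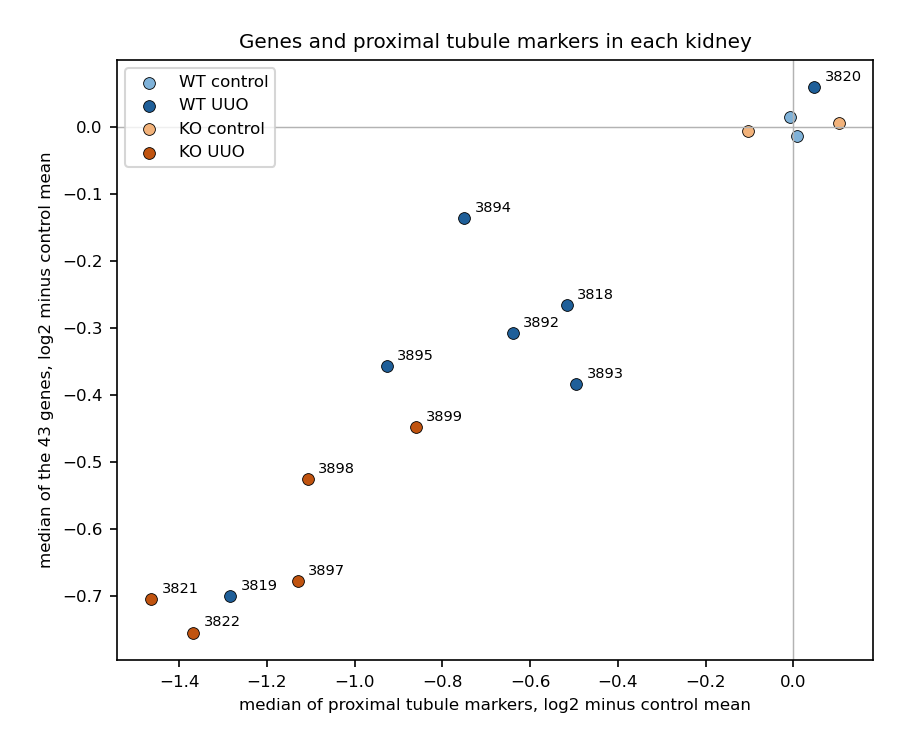
Median difference from the control mean of the 43 genes (vertical axis) and of the proximal tubule markers (horizontal axis), both in log2, 1 point per kidney. WT kidney 3820 lies beside the controls and WT kidney 3819 among the KO kidneys.

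The genotypes were then compared within the 12 obstructed kidneys. All 43 genes had a lower mean in KO, with a median log2 difference of -0.36, beside 0.0026 for all genes. At an unadjusted limma p under 0.05, 28 were lower (65.1%), beside 4.78% of all genes, and 0 were higher, beside 5.55%. At an adjusted p under 0.05 there were 0, beside 0.00552% of all genes, which is IL33 alone. The study's threshold asks for more than 1.3-fold, with limits of 0.05 for the p-value and 0.25 for its adjusted form, and 0 of the 43 met it, beside 0.0110% of all genes. The study applied it to fewer WT kidneys than the 7 held here. With the 5 KO kidneys against the 4 WT kidneys of set 2, 14 of the 43 met it, beside 1.25% of all genes. With set 2 alone in both genotypes 7 met it, beside 0.447%, and with the set of mice as a block 0, beside 0.00552%. The smallest adjusted p over the 43 genes was 0.311. In 0 of the 43 did every KO kidney lie below every WT kidney, beside 0.336% of all genes. Markers of cell types were compared in the same way, and 0 passed an adjusted p under 0.05. Of the 14 proximal tubule markers 13 had a lower mean in KO, with a median of -0.54 and 9 at an unadjusted p under 0.05, all lower. All 9 measured markers of fibroblast and smooth muscle had a higher mean, with a median of 0.39 and 6 at an unadjusted p under 0.05, and so had 9 of 11 leukocyte markers, with a median of 0.27 and 4 at an unadjusted p under 0.05, all higher. At an unadjusted p under 0.05, 0 of 8 thick limb and distal tubule markers and 0 of 7 fat cell markers passed. The count was 1 of 9 for collecting duct and 1 of 7 for endothelium, lower in KO. It was 1 of 3 for podocyte and 1 of 9 for injured tubule, higher in KO. The part of cell types in the difference of the 43 genes was not tested.

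Of single genes, SLC27A2 had a log2 difference of -0.47 (95% interval -0.72 to -0.23, exact permutation p = 0.00758), CPT2 one of -0.54 (-0.84 to -0.24, exact permutation p = 0.00758) and ACADS one of -0.37 (-0.59 to -0.15, exact permutation p = 0.00884). SCP2 followed with -0.36 (-0.57 to -0.14, exact permutation p = 0.0114) and ACADM with -0.50 (-0.81 to -0.19, exact permutation p = 0.00758). These permutation tests took both tails over every split of the 12 kidneys into 5 and 7, with 0.00126 as the smallest p they can give, and these 5 genes were picked for their small limma p among the 43. For PPARGC1A the difference was -0.08 (-0.46 to 0.31, exact permutation p = 0.732) and for BDH1 -0.33 (-0.69 to 0.03, exact permutation p = 0.0429). The limma interval of BDH1 holds 0, while its permutation p is under 0.05. With each array left out the value of BDH1 ran from -0.38 to -0.18.

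Most of the 43 genes had a lower mean in KO in each set of mice, and 0 passed an adjusted p under 0.05 in either. Set 1 held 2 KO and 3 WT kidneys. There the median difference from the controls was -0.70 in WT kidney 3819, beside -0.70 and -0.75 in the KO kidneys, and 0.06 in WT kidney 3820. Genes measured in the same kidneys are not independent samples. In set 1 the mean was lower in KO for 40 of the 43, with a median of -0.43, and in set 2 for 39, with a median of -0.23. It was lower in both sets for 36. With the set as a block the median was -0.36, with 29 genes lower at an unadjusted p under 0.05, beside 4.94% of all genes, and 0 at an adjusted p under 0.05. Counts depended on single kidneys. At the study's threshold the count was 18 without WT kidney 3819, beside 1.70% of all genes. It was 6 without KO kidney 3899 (ACADS, CPT2, ACSM3, SLC27A2, SCP2 and CAT), beside 0.518%, and 1 without WT kidney 3820 (SLC27A2), beside 0.171%. At an adjusted p under 0.05, 3 were lower (ACAA1B, ETFB and SCP2) without 3819 and 3820 together, beside 0.0496% of all genes, and the same 3 with all KO kidneys against the WT kidneys of set 2, beside 0.0882%. Genes of these counts that fall outside the naming rule were named after their values were seen. In set 1 alone 4 of the 43 were lower at an unadjusted p under 0.05, beside 2.65% of all genes, and in set 2 alone 28, beside 4.64%.

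Whether the response to UUO differed between the genotypes was tested as an interaction over all 16 arrays. At an unadjusted limma p under 0.05 there were 2 of the 43 (4.65%), CPT2 and CRAT, beside 4.74% of all genes, so the share was that of the background. At an adjusted p under 0.05 there were 0, beside 0% of all genes, and the smallest adjusted p over the 43 was 0.973. The interaction was negative for 41 of the 43, with a median of -0.21, beside 0.0016 for all genes. The comparisons with UUO in each genotype share their kidneys with this test. In controls, KO and WT did not differ for any of the 43 at an unadjusted p under 0.05, beside 3.66% of all genes, or at an adjusted p under 0.05, beside 0%. The median difference of the controls was -0.04, with 30 of the 43 lower in KO. IL33 itself, the gene these mice lack, was called neither in controls nor for the interaction. Its unadjusted limma p was 0.00367 in controls, and its limma adjusted p was 0.899 for the interaction. There are 2 controls of each genotype, and a p that misses the threshold does not show that values were alike.

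Other genes of the same pathways were taken from lists. Their counts stand beside 8.22% of all genes called lower and 6.97% higher in WT, and 11.2% lower and 10.6% higher in KO. No list was tested against these shares. Of 14 measured genes of peroxisome biogenesis, 4 were called lower in WT and 6 in KO, none higher, with PEX19 at -0.39 and -0.42 and PEX5 at -0.30 and -0.38. Of 27 other peroxisomal enzymes and carriers, 8 were lower and 1 higher in WT, and 10 lower and 1 higher in KO. MPV17L, a peroxisomal membrane protein, fell by 1.28 and 2.14, and AGPS, of ether lipid synthesis, by 1.14 and 1.31. PAOX, a polyamine oxidase, rose by 0.43 and 0.60. Of 23 other mitochondrial acyl-CoA and ketone enzymes, 13 were called lower in WT and 16 in KO, with ACSS1 (acetate ligase) at -1.30 and -1.57 and IVD (isovaleryl-CoA dehydrogenase) at -1.11 and -1.51.

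Of 13 thioesterases and medium-chain ligases, 2 were lower and 3 higher in WT, and 4 lower and 3 higher in KO. ACSM5 fell by 0.99 and 1.42 and ACSM2 by 0.75 and 1.29, and ACOT10 rose by 0.70 and 0.98 and ACOT7 by 0.37 and 0.38. Of 16 genes of fatty acid uptake and long-chain ligases, 1 was lower and 3 were higher in each genotype. LPL, lipoprotein lipase, fell by 1.10 and 1.75, and the long-chain ligases ACSL4 and ACSL5 rose by 0.49 and 0.47 in WT and by 0.55 and 0.68 in KO. Of 7 genes of carnitine synthesis and uptake, 0 were called by limma in WT. There 1 was lower at an unadjusted p under 0.05, beside 13.7% of all genes. In KO 1 was called lower, the carnitine transporter SLC22A5, which fell by 1.01.

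Of 25 other regulators, 12 were lower and 2 higher in each genotype. The nuclear receptor ESRRB fell by 1.85 in WT and 1.52 in KO, and the mitochondrial deacetylase SIRT3 by 1.01 and 1.40. ADFP, which coats lipid droplets, rose by 2.43 and 2.46, and FGF21, a fasting hormone, rose by 1.41 in WT, with 0.64 in KO (limma adjusted p = 0.256). Of 18 genes of fatty acid synthesis, 2 were higher in WT and none lower, and 1 was lower and 1 higher in KO. At an unadjusted limma p under 0.05, 3 were lower in WT, beside 13.7% of all genes, and 2 higher. The desaturase FADS2 fell by 0.58 in KO, with -0.45 in WT (limma adjusted p = 0.104). The elongase ELOVL1 rose by 0.34 and 0.42, and FADS3, of the same family as FADS2, rose by 0.29 in WT, with 0.14 in KO (limma adjusted p = 0.324). After UUO, KO and WT differed at a limma adjusted p under 0.05 in 0 genes of these 8 lists. At an unadjusted p under 0.05, 12 of the 23 other mitochondrial enzymes were lower in KO, 9 of the 27 other peroxisomal enzymes and 4 of the 25 other regulators, none higher, beside 4.78% of all genes for lower. In each of the other lists 1 or 2 genes were lower and 0 or 1 higher, and these small counts were not tested against the background.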

How the data were processed

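RNA of 16 mouse kidneys was measured on Illumina MouseRef-8 v2 BeadChips, 1 array per kidney. The values analysed are the deposited intensities on a linear scale, which share nearly the same quantiles on every array. BeadStudio 2 stands in the submitters' processing notes and beadarray in the study's methods, and the normalization method, background correction and joining of probes are not given in the sources used here. All 18132 genes were kept. Intensities were quantile-normalized, taken to log2 and fitted with limma 3.58.1 in R 4.3.3, with p-values adjusted by Benjamini-Hochberg over all genes and a call at an adjusted p under 0.05. The model of 4 groups held all 16 arrays, and KO against WT after UUO held the 12 UUO arrays. The fit was also run on simulated data with a known step, independent noise and no shift shared by a whole kidney. That run checks the code and not the calls made here. Promoters and figures used Python 3.11.15 with numpy 2.4.6, pandas 2.3.3 and matplotlib 3.10.9. Precision is limited by how many arrays each group holds. The members and lists were chosen with earlier results of these data known. Members given with their ranges in each group include those with the largest fall in each role. Those with the smallest change in a role, averaged over both genotypes, are given too. Opposite signs cancel in that average, so DECR2 was taken although PHYH changed less in each genotype. The 5 with the smallest p for KO against WT after UUO and the 3 with the smallest p of the interaction are included. PPARA, PPARGC1A and PDK4 are as well. From each pathway list up to 2 called genes with the largest fall and up to 2 with the largest rise are named, ranked by the change in WT, or by the mean of both genotypes if called in both. Alternatives were the deposited values on log2, median centring, array weights, a trend of the prior variance, the brighter genes only, other fold thresholds, the set of mice as a block or alone, other arrays in the model, each array left out and pairs of kidneys left out. Protein features were not computed, since no protein table was at hand.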

Additional observations from a re-analysis of the deposited data

Results flagged for a closer look

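In 7 of 48 groups of values searched, 1 kidney stood far from the others of its group, and chance alone marks about 1 in 20 groups. WT UUO kidney 3820 was the highest of its group in 4 of them. It had a log2 intensity of 14.057 for ACADM (next 13.467), 8.481 for ACAT1 (next 7.711), 9.285 for BDH1 (next 8.484) and 7.449 for PPARA (next 7.113). WT UUO kidney 3819 was the lowest of its group for HADHB at 10.479 (next 11.022), and WT UUO kidney 3818 the lowest for IL33 at 8.386 (next 9.105). KO UUO kidney 3898 was the highest of its group for BDH1 at 8.209 (next 8.054). No cause was tested.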

How the results depend on the processing

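Each array was left out in turn. A control left alone in its group is assumed to vary like the other groups. Genes called lower in WT (12) then ranged from 2 to 16 and genes called higher (0) from 0 to 1, and genes at the study's threshold (0) from 0 to 18. Genes lower in KO against WT after UUO at an unadjusted p under 0.05 (28) ranged from 19 to 32. The share of all genes was 4.78% with every UUO array kept and is not given here with single arrays left out. The median log2 change in KO ranged from -0.7186 to -0.5481 and the median difference of controls from -0.0747 to -0.0199. With UUO kidneys of set 1 only, 1 gene was called lower in WT and 4 genes were lower in KO against WT at an unadjusted p under 0.05. With set 2 only, 21 were called lower and 3 higher in WT (11.9% and 11.5% of all genes), 2 higher in KO (12.2%) with a median of -0.5398, and 7 met the study's threshold (0.447%). With the kidneys of 1 genotype alone, 6 were called lower in WT (5.34% of all genes) and 1 higher in KO (11.6%). The study's threshold gave 5 genes with array weights (0.441% of all genes), 9 with the brighter genes only (1.85% of those kept), 6 with 4 groups in 1 model (0.700%), 1 without WT kidneys 3818 and 3820 (0.237%), 14 with 5 KO kidneys against WT kidneys of set 2 (1.25%) and 16 without 3819 and 3820 (1.27%). The last 2 settings called 3 at an adjusted p under 0.05. In WT, 1 gene was called higher without 3818 and 3820 (11.1%) and 1 without 3819 and 3820 (8.92%). The pair 3819 and 3820 was chosen after seeing the data.

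Of 1644 values of named members 28 changed sign, 0 of them called before or after. Part of the 1644 could not change. Leaving out an array of the other genotype, or adding the trend of the prior variance, keeps the log2 change as it was. In WT, DECR2 was -0.0214 with array weights, -0.0386 to 0.1218 with each array left out, -0.1077 without 3818 and 3820 and -0.0549 with set 2. PPARA was -0.0358 with array weights, -0.0481 to 0.0366 with each array left out, -0.0657 without 3818 and 3820, -0.0695 with set 2 and -0.0476 without 3819 and 3820. FABP1 was -0.0256 to 0.0065 with each array left out and 0.0082 with set 1, and HADHB -0.1070 to 0.1590 and -0.1775. In KO with each array left out, DECR2 was -0.1625 to 0.0868, HADHB -0.0633 to 0.1523 (set 1 -0.0514) and PPARA -0.1254 to 0.0091. In KO against WT after UUO, PPARGC1A was -0.1589 to 0.0482 with each array left out, 0.1301 without 3818 and 3820, 0.0850 with set 2 and 0.1211 with 5 KO kidneys against WT kidneys of set 2. With set 1, HADHB was 0.0602 and PDK4 0.4728, and with set 2, ACADSB was 0.0297 and FABP3 0.1413. For these changes the cause was not tested.

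The medians of the members kept their sign throughout, from -0.371 to -0.1859 in WT, -0.7684 to -0.5398 in KO, -0.4268 to -0.2207 in KO against WT after UUO and -0.3848 to -0.1191 for the interaction. The counts called for controls and for the interaction were 0 in all 21 and 24 alternatives. IL33 itself was called in neither main test, so these counts do not show that values were alike. Leaving out a UUO array cannot change the difference between the controls. Low signal limits the 7 members below the median of the table.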

Other observations

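Markers of other cell types were measured too, with WT given first and KO second. Of all genes, 8.22% and 11.2% were called lower and 6.97% and 10.6% higher. Of 8 thick limb and distal tubule markers, 6 and 5 were called lower, with median log2 changes of -0.71 and -0.77 and UMOD the brightest. Of 9 collecting duct markers, 5 and 5 were called lower, with medians of -0.92 and -1.13 and SLC26A4 the brightest. Of 3 measured podocyte markers, 1 and 1 were called lower, with medians of -0.15 and -0.14 and PODXL the brightest. Of 7 endothelial markers, 1 and 3 were called lower, with medians of -0.07 and -0.07 and EMCN the brightest. Of 11 leukocyte markers, 3 and 7 were called higher and 1 and 1 lower, with medians of 0.46 and 0.91 and S100A8 the brightest. Of 9 fibroblast and smooth muscle markers, 5 and 6 were called higher and 1 and 0 lower, with medians of 0.33 and 0.77 and ACTA2 the brightest. Of 7 fat cell markers, 0 and 0 were called by limma and 0 and 0 had an unadjusted p under 0.05, with medians of 0.04 and 0.04.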
